A study of Mus musculus with 72 samples.

Results

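The genes described here are 7 that carry out or feed the urea cycle in liver: Cps1, Otc, Ass1, Asl, Nags, Slc25a15 and Gls2. They were taken by symbol from the gene count tables, and all 7 had a row among the 22823 genes of the liver table. Of the 15759 genes of the table for the suprachiasmatic nucleus (SCN, the hypothalamic pacemaker), 5 of the 7 had a row, since Otc and Nags have none there. All 7 passed the filter on low counts in liver, where 20249 genes were tested.

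RNA-seq was made from liver and from laser-microdissected SCN of c57bl/6 mice that were 8 to 12 weeks old and single-housed with free access to food. The mice ate either MCD, a diet without methionine and choline, or its isocaloric control for 10 days of 12 h light and 12 h dark, and were killed in constant darkness on day 11. Each of the 24 groups (tissue, diet and 6 circadian times, CT0 to CT20, every 4 h) held 3 libraries, from 2 male mice and 1 female mouse according to the labels. No group carried a genetic change, and the constant darkness of the last day was shared by both diets. The protocol text names male mice only, whereas the sample labels name a female in every group. The 36 liver libraries held 52.6 M to 86.7 M counted reads (median 64.4 M) and the 36 SCN libraries 23.3 M to 79.8 M (median 57.0 M). In liver the male library control CT08 (a) stood apart, as the lowest control library for Otc, Slc25a15 and Nags, and results that turn on it are given with and without it.

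The urea cycle turns ammonia, which is toxic, into urea for excretion, and the liver is the organ that runs the whole of it. Nags makes N-acetylglutamate, the activator without which Cps1 does not work. Cps1 then joins ammonia and bicarbonate to carbamoyl phosphate, and Otc joins that to ornithine to give citrulline, all inside the mitochondrion. Slc25a15 carries ornithine in and citrulline out. In the cytosol Ass1 and Asl build and split argininosuccinate. Gls2, the liver form of glutaminase, releases ammonia from glutamine. Many of these genes are most highly expressed in hepatocytes near the portal vein, and food intake, glucagon and glucocorticoids are known to set their levels.

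The genes are spread over the genome. In the GENCODE M21 annotation (build GRCm38) the mitochondrial enzymes Cps1, Otc and Nags lie at chr1:67123026-67231259, chrX:10252305-10321024 and chr11:102145513-102149477, all on the plus strand. The carrier Slc25a15 lies at chr8:22375551-22398597 on the minus strand. The cytosolic enzymes Ass1 and Asl lie at chr2:31470207-31520672 (plus) and chr5:130011258-130029247 (minus), and Gls2 at chr10:128194457-128210004 (plus).

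RefSeq promoter sequences (build GRCm38.p6, the 250 bases before the start) were at hand for 4 of the 7 genes, 5 promoters in all. The Otc and Nags promoters are shown because these genes gave the opposite results below, Otc the most separated diets and Nags no call between diets. A stretch of 30 bases is shown for Ass1, the gene whose response to the diet differed between the sexes. Otc lies before chrX:10252305 on the plus strand (sequence chrX:10252055-10252304), Nags at chr11:102145263-102145512 on the plus strand, and the Ass1 stretch at chr2:31470222-31470251 on the plus strand. Capitals mark a match to a motif, which is AGGTCA (a nuclear receptor motif, read here as TGACCT on the other strand) in Nags and CACGTG (E-box, the site of the clock factors) in Ass1.
Otc: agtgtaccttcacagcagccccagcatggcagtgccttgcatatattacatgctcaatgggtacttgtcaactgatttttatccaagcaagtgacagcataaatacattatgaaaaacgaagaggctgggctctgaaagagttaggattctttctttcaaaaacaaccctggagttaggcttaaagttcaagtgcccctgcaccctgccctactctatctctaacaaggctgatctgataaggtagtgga
Nags: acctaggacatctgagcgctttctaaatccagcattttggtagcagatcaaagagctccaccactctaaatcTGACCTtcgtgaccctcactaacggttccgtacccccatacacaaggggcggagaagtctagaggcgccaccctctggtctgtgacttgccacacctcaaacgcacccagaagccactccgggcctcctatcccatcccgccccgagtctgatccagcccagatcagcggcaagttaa
Ass1 E-box: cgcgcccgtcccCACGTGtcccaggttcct
The other motifs searched on both strands, with no overlap among the matches found, were TGACGTCA, TTANGTAA, TTGCNNCAA, TGATGNAA and ACANNNTGT, and none of the 7 occurred in the Otc window. The E-box stood at -36 to -31 from the Ass1 start and at -77 to -72 in the second of the 2 Slc25a15 promoters. Both positions are counted from RefSeq starts, which lie inside the GENCODE genes given above, so that these windows overlap the genes as GENCODE draws them. It is found in 6.02% of 32851 mouse promoters of this length, and AGGTCA in 14% of them. A match is a description of letters, and no match says only that the letters are not in this window.

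In liver, 6 of the 7 genes were lower on MCD over the day, and Nags, which makes the activator of the pathway, did not pass the test (edgeR quasi-likelihood test with sex as a term, Benjamini-Hochberg adjusted p under 0.05 over all genes). The falls ran from 1.27-fold for Slc25a15 to 1.71-fold for Otc. Changes were common in this liver comparison, since 46.6% of all genes tested were called and 21.2% were called lower. All 6 called members fell. Values are given as CPM, counts scaled to the library size with TMM, which serve to compare libraries for 1 gene but not genes with each other.

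**Figure D1:**
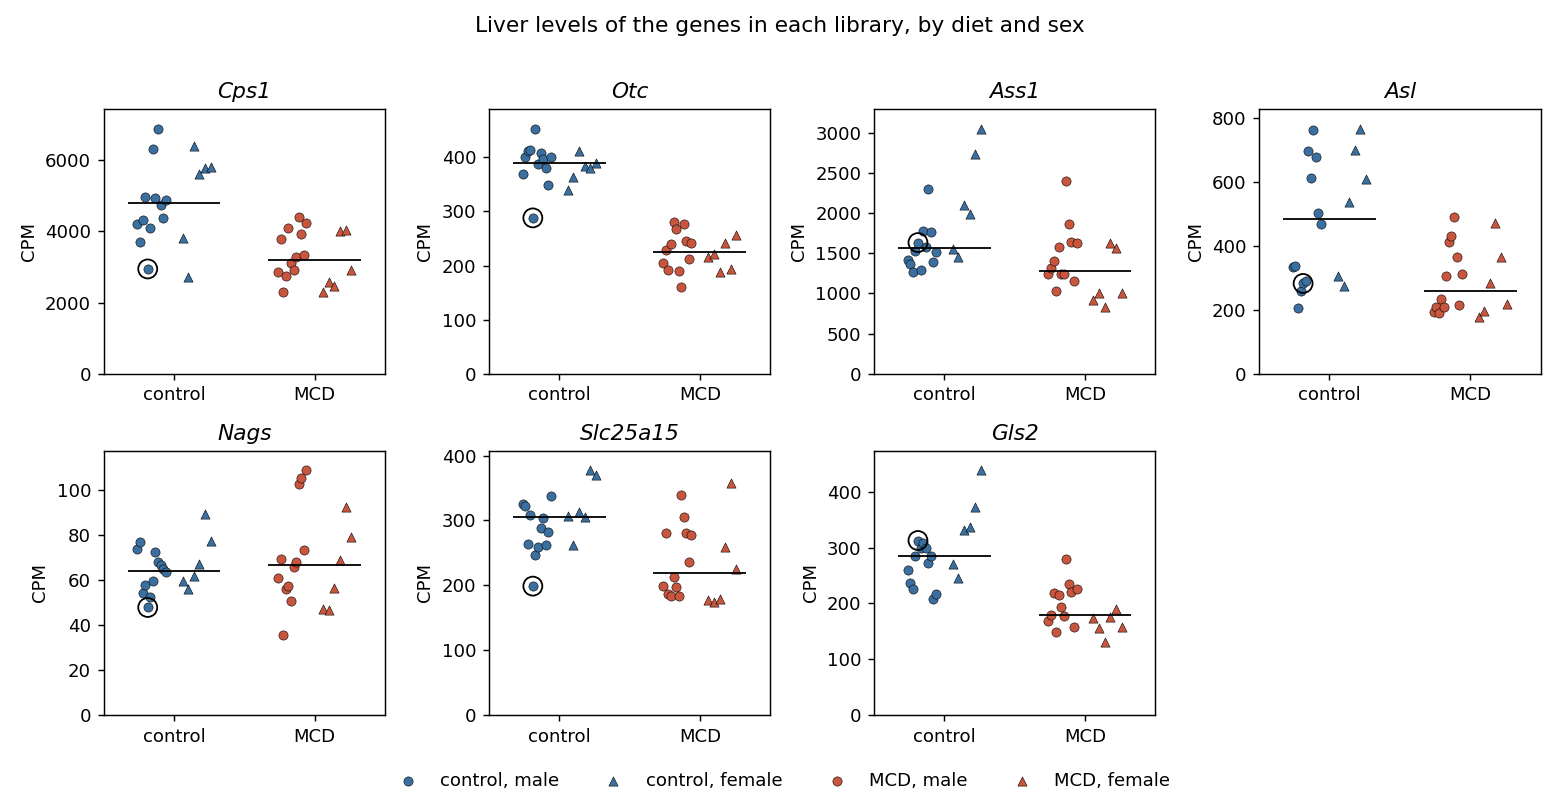
Each panel is 1 gene, with the CPM of each liver library as a point on a linear axis that starts at 0, control and MCD side by side, circles for males, triangles for females and a line at the median of 18. The ringed point is the library labelled control CT08 (a). Otc is the panel in which the diets do not overlap, and Nags the panel in which the medians lie together (64.3 and 66.8 CPM).

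Otc, the enzyme that makes citrulline, separated the diets completely. Its level was 288 to 453 CPM (median 389) in the 18 control libraries and 161 to 280 CPM (median 226) in the 18 MCD libraries. Every MCD library lay below every control library. How many of all genes separate the 18 and 18 libraries in this way was not counted. The lowest control library was the one labelled control CT08 (a), at 288 CPM, and the next lowest held 339 CPM. The change was -0.78 ± 0.07 (log2, SE, n = 18 per diet, edgeR adjusted p 7.26e-10), and leaving out any 1 of the 36 libraries, control CT08 (a) included, gave -0.82 to -0.75.

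Cps1, which fixes the ammonia, was 2720 to 6875 CPM (median 4801) on control and 2309 to 4404 CPM (median 3198) on MCD. All 18 MCD libraries lay below the control median, and 10 control libraries lay above the highest MCD library. The change was -0.54 ± 0.10 (edgeR adjusted p 6.99e-05). Slc25a15, the ornithine carrier, was 199 to 377 CPM (median 305) on control and 174 to 357 CPM (median 219) on MCD. Its change was -0.34 ± 0.08 (edgeR adjusted p 0.00056), and the diets overlapped more than for Otc, with 15 of 18 MCD libraries below the control median.

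Of the cytosolic enzymes, Asl was 206 to 765 CPM (median 484) on control and 177 to 489 CPM (median 259) on MCD. Its wide range within each diet followed the time of day, as described further on. The change was -0.67 ± 0.08 (edgeR adjusted p 1.40e-07), and 17 of 18 MCD libraries lay below the control median. Ass1 was 1266 to 3047 CPM (median 1566) on control and 834 to 2397 CPM (median 1278) on MCD, with a change of -0.36 ± 0.11 (edgeR adjusted p 0.0108). For Ass1 only 11 of 18 MCD libraries lay below the control median. Without the libraries numbered 3, which are all of the females, Ass1 was not called (-0.10, edgeR adjusted p 0.521).

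Gls2, which supplies ammonia from glutamine, was 209 to 438 CPM (median 285) on control and 132 to 280 CPM (median 179) on MCD. All 18 MCD libraries lay below the control median, 12 of them below the lowest control library. The change was -0.61 ± 0.09 (edgeR adjusted p 8.23e-06). Nags was 47.9 to 89.2 CPM (median 64.3) on control and 35.8 to 109 CPM (median 66.8) on MCD, with a change of 0.05 ± 0.07 (edgeR adjusted p 0.581).

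The scaling bears on these directions. The TMM factor was 0.917 ± 0.074 (SD, n = 18) in control and 1.10 ± 0.08 in MCD libraries. That of the library labelled control CT08 (a) was 1.18. Scaling by library totals alone moved the median of all genes from 0.02 to 0.27 (log2). It turned the share of higher calls among all called genes from 54.4% to 87.3%. On that scale 4 genes remained lower, Otc (-0.52), Asl (-0.41), Gls2 (-0.35) and Cps1 (-0.28), each with an edgeR adjusted p of 0.00556 or less. Ass1 (-0.10) and Slc25a15 (-0.08) were no longer called, and Nags was called higher (0.30, edgeR adjusted p 8.33e-05). Relative to the median gene of each scale, the values were nearly alike: -0.36 and -0.35 for Slc25a15, and 0.03 for Nags on either.

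Some library features moved with the diet. The libraries fell into 2 kinds by the level of the mitochondrial transcript mt-Nd6, with 21 at 33.0 to 133 CPM (8 control, 13 MCD) and 15 at 380 to 1035 CPM (10 control, 5 MCD). Within the low kind 4 members were called lower (Cps1, Otc, Asl and Gls2) and within the high kind 5, these and Slc25a15. Over all genes 4583 were called within the low kind (48.9% of them higher) and 5096 within the high kind (53.5% higher). With all libraries it was 9426. The filter on low counts was run anew within each kind, so these are counts and not shares. Otc changed by -0.76 ± 0.10 within the low kind (edgeR adjusted p 7.98e-05) and by -0.85 ± 0.08 within the high kind (adjusted p 0.000162). The labels and tables give no batch for the kinds, and a term for the kind was added to the fit as an alternative. With it the same 6 members were called lower over the day. Slc25a15 in males (edgeR adjusted p 0.0542) and Otc at CT8 (0.0606), both described further on, lost their calls, and Cps1 gained one for its rhythm on control (0.0411) and Gls2 for the difference between the sexes (0.0445).

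The 5 hepatocyte markers were used to check the tissue, and Alb, for albumin, stood at 73124 ± 13413 CPM (SD, n = 18) on control and 79903 ± 15219 CPM on MCD (edgeR adjusted p 0.187). Of the 4 hepatocyte markers with a row, 3 were called lower on MCD, and their summed level was 74333 to 112492 CPM on control and 52444 to 114573 CPM on MCD. Among 7 periportal markers other than the urea cycle genes, 2 were called higher and 2 lower, and their sum was 1689 to 5162 CPM on control and 2053 to 4023 CPM on MCD. Among 10 pericentral markers 1 was higher and 2 lower (sums 2029 to 12671 and 4337 to 12240 CPM). Macrophage markers were higher in 7 of 8 cases (280 to 641 and 366 to 780 CPM) and red cell markers lower in 4 of 5 (130 to 453 and 93.7 to 273 CPM). Endothelial markers were higher in 3 of 5 cases (214 to 304 and 227 to 326 CPM) and stellate cell markers in 2 of 5 (257 to 579 and 295 to 736 CPM), none of either lower. Of 5 cholangiocyte and 4 lymphocyte markers 1 each was higher (27.1 to 44.7 and 25.4 to 42.8 CPM, and 8.93 to 35.5 and 17.6 to 55.0 CPM). No marker of these lists with a row was at 0 in all libraries. In bulk tissue, fewer cells of a type and less RNA per cell cannot be told apart, and the part of cell makeup in the members' changes was not tested.

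At single circadian times, 12 of the 42 pairs of gene and time were called, all lower on MCD, against 11.8% of all pairs of gene and time called (5.7% called lower). By time, 12.6% of all genes were called at CT0, 18.2% at CT4, 1.3% at CT8, 15.2% at CT12, 12.5% at CT16 and 11.3% at CT20. Control CT08 (a) was in the fit that gave these shares. Otc was lower at all 6 times, by 0.65 to 0.99 on the log2 scale, with the largest value at CT12. Its change at CT8 was -0.65 (edgeR adjusted p 0.0384), and -0.84 (0.00152) without control CT08 (a). At CT12 the control libraries held 388, 408 and 383 CPM, and the MCD libraries 190, 161 and 242 CPM. Asl was called at CT0, CT12, CT16 and CT20, Cps1 at CT12 and Slc25a15 at CT4. Asl fell most at CT20, from 501, 468 and 607 CPM to 214, 312 and 217 CPM (-1.07 ± 0.19, edgeR adjusted p 0.000781). With library totals Slc25a15 at CT4 (-0.31, edgeR adjusted p 0.243) and, at CT12, Cps1 (-0.36, 0.171) and Asl (-0.24, 0.295) were not called, nor was Cps1 at CT12 without the filter on low counts (0.0510). Without the libraries numbered 1 none of the 12 pairs was called, and without those numbered 2 only 3 were. Single libraries decided 6 of the 12 calls. That for Cps1 at CT12 was lost without any of 16 libraries (adjusted p up to 0.159), the 5 of them at that time being control CT12 1, 2 and 3 and MCD CT12 1 and 2. The same 5 libraries each ended the Asl call at CT12 (0.0539 to 0.112). Otc at CT8 was lost without control CT04 1, control CT08 b or 3, or MCD CT08 2 or 3 (0.0505 to 0.290), and at CT16 without MCD CT16 3 (0.0514). Slc25a15 at CT4 was lost without control CT04 2 or MCD CT04 1 or 3 (0.0566 to 0.108), and Asl at CT0 without MCD CT00 3 (0.0523).

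The 3 MCD libraries of a time lay below its 3 control libraries at 6 of 6 times for Otc, 5 for Gls2 (all but CT20), 4 for Asl, 3 each for Cps1 and Slc25a15, 1 for Ass1 and none for Nags. Over all genes and times 13.3% of pairs had all MCD libraries below and 14.9% all above. Nags stood the other way at CT16, where the MCD libraries at 103, 105 and 92.6 CPM lay above the control libraries at 68.1, 66.6 and 89.2 CPM. That difference was 0.43 ± 0.16 and was not called (edgeR adjusted p 0.0803).

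**Figure D2:**
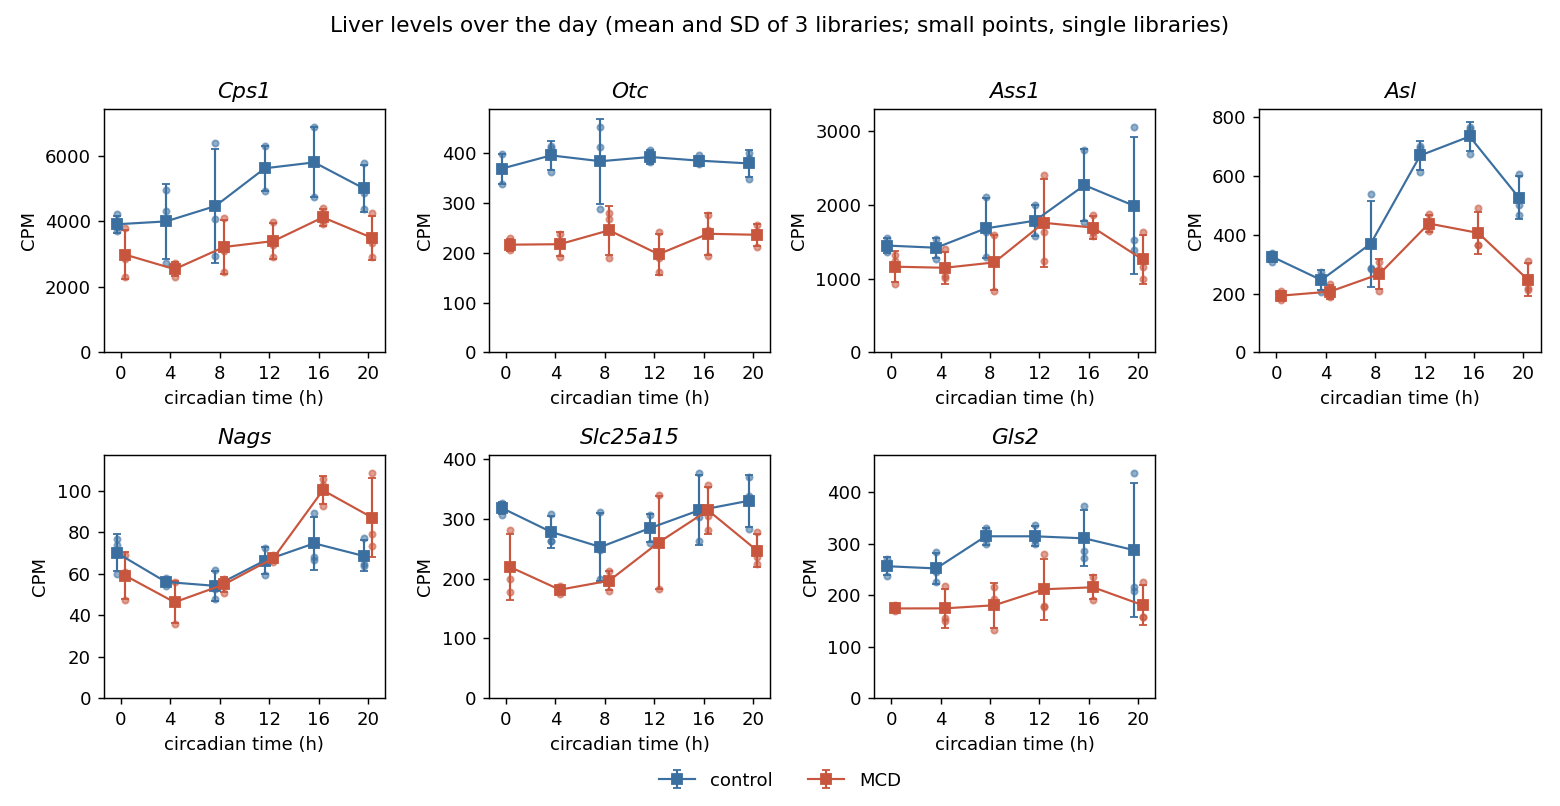
Each panel is 1 gene in liver, with circadian time in h on the x axis and CPM on a linear axis that starts at 0. Small points are single libraries, and squares with bars are the mean and SD of the 3 libraries of a diet and time. Asl is highest at CT12 and CT16 on either diet, while Otc stays flat at 2 levels.

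Asl had the widest daily range among the 7 genes. A 24 h cosine and sine fitted to the 6 time means of the control diet had a range from trough to peak of 1.60 (log2) with the peak at 15.3 h (edgeR adjusted p 3.82e-07). Its levels on control were 206, 260 and 273 CPM at CT4 and 760, 675 and 765 CPM at CT16. On MCD they were 189, 234 and 197 CPM at CT4 and 489, 365 and 363 CPM at CT16, with a fitted range of 1.25 and the peak at 13.6 h (edgeR adjusted p 7.44e-06). The CT16 libraries were high on both diets and did not overlap those of CT4 on either.

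On control, Asl was the only 1 of the 7 genes with a 24 h component, against 17.8% of all genes. The count rose with single libraries left out. Without the library labelled control CT08 3 it was 3, with Cps1 (edgeR adjusted p 0.0143) and Nags (0.0315) in addition. Cps1 was also called without control CT08 (a) (0.0442). Nags was called without any of 9 libraries (0.0315 to 0.0482), namely control CT00 3, CT08 3 and CT16 2 and MCD CT00 2 and 3, CT04 1 and 2 and CT20 1 and 2. Nags (0.44, adjusted p 0.0527), Cps1 (0.62, 0.0737), Ass1 (0.63, 0.121), Slc25a15 (0.37, 0.194), Gls2 (0.35, 0.373) and Otc (0.06, 0.944) were not called in the full fit.

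On MCD, 3 of the 7 genes had a 24 h component, against 28.2% of all genes: Asl, Nags and Slc25a15. Nags ranged over 1.07 with its peak at 17.0 h (edgeR adjusted p 5.56e-06), from 35.8, 56.0 and 46.9 CPM at CT4 to 103, 105 and 92.6 CPM at CT16. On control the same times held 54.1, 57.8 and 56.2 CPM and 68.1, 66.6 and 89.2 CPM. Slc25a15 ranged over 0.72 with its peak at 16.3 h (edgeR adjusted p 0.00274). Cps1 (0.57, adjusted p 0.0852), Ass1 (0.67, 0.0728), Gls2 (0.34, 0.373) and Otc (0.05, 0.955) were not called. Cps1 was called without control CT08 (a) or 3 or MCD CT00 2 (0.0401 to 0.0486), and Ass1 without control CT20 3, MCD CT04 1 or MCD CT12 1 (0.0334 to 0.0481). Across the other settings of the processing the count ran from 3 to 4, with Cps1 or Ass1 in addition. Slc25a15 was not called without the libraries numbered 3 (0.0900).

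The rhythms were not shown to differ between the diets for any of the 7 genes by edgeR, against 4.87% of all genes called. The nearest were Nags (adjusted p 0.0727) and Asl (0.121), with unadjusted p under 0.05 for these and for Slc25a15 (0.0351). DESeq2, fitted as an alternative, called Nags (adjusted p 0.0265) and Asl (0.0336). Without 1 library the edgeR call was reached for Nags (without control CT16 3, 0.0389, or MCD CT04 2, 0.0425) or Asl (without control CT08 3, 0.0118).

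The diet effect on Ass1 differed between the sexes. From CT0 to CT20 the control females held 1554, 1453, 2104, 1992, 2734 and 3047 CPM, and the MCD females 923, 1003, 834, 1626, 1569 and 999 CPM. Thus at each of the 6 times the MCD female lay below the control female. The 12 male libraries of each diet overlapped, at 1266 to 2294 CPM (median 1524) on control and 1034 to 2397 CPM (median 1356) on MCD. At CT0 both MCD males, at 1243 and 1313 CPM, lay below both control males, at 1419 and 1364 CPM, and at the other 5 times the males overlapped. The fitted change was -0.90 ± 0.15 in females and -0.09 ± 0.11 in males (edgeR adjusted p 0.000106 and 0.529). The difference between the sexes was -0.80 ± 0.19 (adjusted p 0.0209), called for 1.77% of all genes, 0.859% in this direction.

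**Figure D3:**
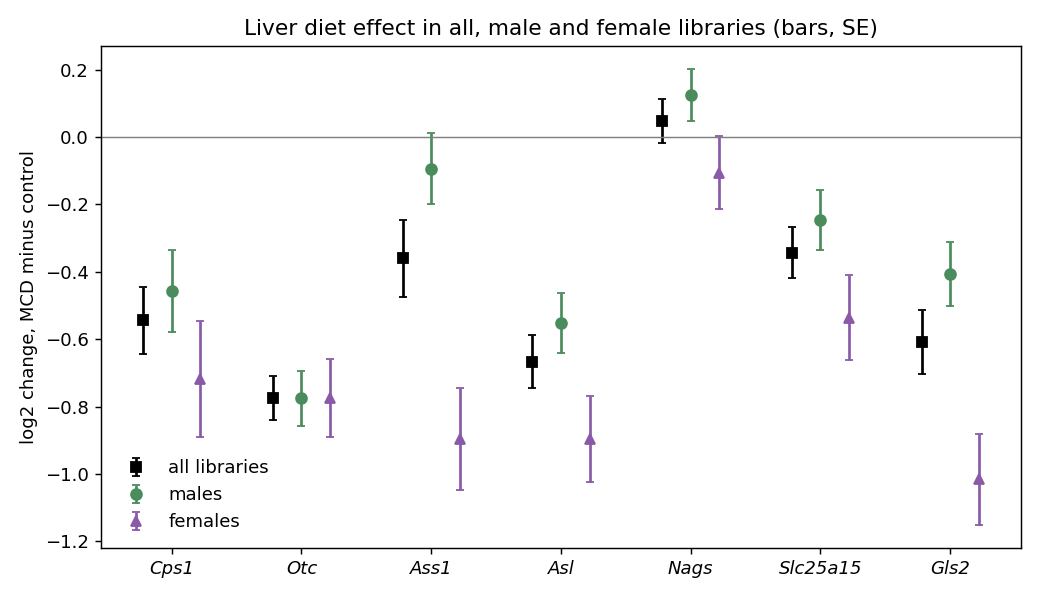
Fitted log2 change (MCD minus control) with its SE for each gene in liver, for all libraries (squares), males (circles, 12 libraries per diet) and females (triangles, 6 per diet), with a line at 0. The values lie lower in females for each gene but Otc, whose values coincide (-0.78 and -0.77), and the gap is widest for Ass1.

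The Ass1 difference was not called without any 1 of 4 female libraries: control CT20 3 (edgeR adjusted p 0.0632), MCD CT00 3 (0.0536), MCD CT08 3 (0.0603) or MCD CT20 3 (0.0512). Leaving out the libraries numbered 1 or 2 also ended the call (0.0710 and 0.384). This leaves 1 male per group, except at control CT8, where both males, (a) and (b), stayed in. Gls2 had the next largest difference, -0.61 ± 0.16 (adjusted p 0.0544), and it was called when control CT08 (a) (-0.61, 0.0485), control CT04 2 or 3, MCD CT04 2, MCD CT12 1 or MCD CT20 1 was left out (lowest adjusted p 0.0340). The female Gls2 libraries held 246 to 438 CPM on control and 132 to 190 CPM on MCD, without overlap, whereas the males held 209 to 313 and 150 to 280 CPM. Otc was 0.00 ± 0.14, the least of the 7.

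In females 6 of the 7 genes were called lower, against 24.8% of all genes called, and in males 5, against 39.6%. The 5 were Cps1 (-0.46), Otc (-0.78), Asl (-0.55), Slc25a15 (-0.25, edgeR adjusted p 0.0290) and Gls2 (-0.41), and Ass1 was called in females alone. With library totals Cps1 (-0.19, edgeR adjusted p 0.0979), Gls2 (-0.14, 0.286) and Slc25a15 (0.02, 0.857) were not called in males, nor was Slc25a15 in females (-0.28, 0.0887). Cps1 was not called in males without the libraries numbered 1 (-0.31, 0.295) or 2 (-0.53, 0.0662), nor Slc25a15 without those numbered 1 (0.434). Slc25a15 was also not called in males without control CT00 1, CT04 2, CT12 2 or CT20 2 or MCD CT16 2 (adjusted p 0.0501 to 0.0635). As for kinds of library, 3 of 6 control females were of the high mt-Nd6 kind and 1 of 6 MCD females, 7 of 12 control males and 4 of 12 MCD males.

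Averaged over the diets no member differed between the sexes, against 9.44% of all genes called, and no member had an unadjusted p under 0.05. On control Ass1 was higher in females by 0.43 ± 0.13 (edgeR adjusted p 0.0337), the only call of the 7 (9.87% of all genes). On MCD it was -0.38 ± 0.13 (adjusted p 0.164), and none of the 7 was called (2.23% of all genes).

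Part of the Ass1 signal is shared with a copy. Gm5424, a processed pseudogene, shares 84.7% of the 31-base words of its transcript with Ass1, so that reads may be assigned to either. It held 20.8% to 26.4% (median 25.7%) of the counts of both together. Summed, the pair changed by -0.38 ± 0.11 over the day (edgeR adjusted p 0.00633) and by -0.79 ± 0.18 between the sexes (adjusted p 0.0171). Gm5424 was also the gene most like Ass1 across libraries. Nags overlaps the antisense gene Gm11586, and Gls2 overlaps Spryd4 on the opposite strand. Whether the counting used strand is not given in the sources used here.

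Where the reads lay along the genes was tested with the exon-bin counts of 34 liver libraries. A change in the use of bins between the diets was called for 1 of the 7 genes, Slc25a15, against 6.16% of 14108 genes (edgeR exon usage test, Simes adjusted p 0.000438). It came from the bin numbered 010, which held 0.048% ± 0.022 of the gene's counts on control (SD, n = 16) and 0.109% ± 0.042 on MCD (n = 18), or 95 and 231 counts in all, a relative rise of 1.05 (log2). This is a very small part of the transcript, and the call was lost without the libraries numbered 3 (0.75, adjusted p 0.805), where Ass1 was called instead (adjusted p 0.0441). For the other 6 genes, among them 38 bins of Cps1 and 40 of Gls2, no bin usage was called with all libraries.

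Of the 42 genes in 5 lists of the wider pathway 22 were called on MCD, 5 higher and 17 lower. That is 52.4%, close to the 46.6% of all genes, so nothing is read from the count itself. Among 7 genes that supply bicarbonate and carriers, 6 were called on MCD, 5 of them lower (median -0.29 against 0.02 over all genes). Car5a, the mitochondrial carbonic anhydrase that provides bicarbonate for Cps1, fell from 78.2 ± 16.7 CPM to 45.4 ± 14.0 CPM (-0.80 ± 0.14, edgeR adjusted p 4.28e-05). Slc25a1, the citrate carrier, changed by -0.51 and Sirt5, a mitochondrial deacylase known to act on Cps1, by -0.39. Slc25a12, an aspartate-glutamate carrier, rose by 0.26. Under library totals 4 of this list were called, 2 in each direction, and Sirt5 was not (-0.13, edgeR adjusted p 0.138).

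Among 9 genes of ammonia and glutamine handling 3 were called, all 3 lower (median 0.02). Slc1a2, a glutamate transporter, changed by -0.75, and Slc38a4 and Slc38a3, which import amino acids including glutamine, by -0.64 and -0.59. Glul, the glutamine synthetase of pericentral hepatocytes, went from 914 ± 245 to 1042 ± 290 CPM and was not called (0.20 ± 0.13, adjusted p 0.200). Under library totals 8 of this list were called, 3 lower and 5 higher, and Glul was among the higher (0.46, edgeR adjusted p 0.000378).

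Of 9 genes that use ornithine and arginine, 3 were called, 1 of them higher (median 0.14). Slc7a1, a cationic amino acid transporter, rose from 1.43 ± 0.77 to 3.96 ± 2.15 CPM (1.43 ± 0.19, edgeR adjusted p 8.50e-07). Gamt, the last enzyme of creatine synthesis, changed by -0.89 and Agmat by -0.42. Under library totals 6 of this list were called, 4 of them higher, within the high mt-Nd6 kind 5, and without the library labelled control CT04 3 also 5.

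Of 8 genes that move nitrogen to aspartate and glutamate, 5 were called, 3 of them lower (median -0.02). Got1, the cytosolic aspartate aminotransferase, changed by -0.83, Mdh1, cytosolic malate dehydrogenase, by -0.62 and Fh1, fumarate hydratase, by -0.38. Asns, asparagine synthetase, rose from 1.81 ± 1.96 to 8.81 ± 5.70 CPM (2.69 ± 0.32, edgeR adjusted p 2.07e-07), and Gpt2, an alanine aminotransferase, by 0.19 (adjusted p 0.0372). Under library totals 7 of this list were called, 4 of them higher. Of 9 regulators 5 were called, 4 of them lower (median -0.07). Nr3c1, the glucocorticoid receptor, changed by -0.48, Klf15, a regulator of amino acid breakdown, by -0.37 and Cebpa, a hepatocyte transcription factor, by -0.25. Ppargc1a, a coactivator of fasting genes, rose by 0.38. Under library totals, which shift all genes alike, 7 regulators were called, 6 of them higher. Nr3c1 alone was called lower there, Klf15 (-0.11, edgeR adjusted p 0.145) and Cebpa (0.00) were not called, and Gcgr, the glucagon receptor, went from called lower (-0.15) to called higher (0.10, adjusted p 0.0364). Relative to the median gene of each scale Gcgr stood at -0.17 on both, Cebpa at -0.27 on both and Klf15 at -0.39 and -0.38. The 5 lists were written from textbook knowledge, and their shares of calls stand beside 46.6% over all genes. On the scale of library totals 12173 of all 20249 genes were called, 87.3% of them higher, and the list counts of that scale stand beside these.

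Across the 36 liver libraries the 7 genes varied together to different degrees. Pearson's r of log2 CPM over the 21 pairs of members ran from 0.04 to 0.84 (median 0.64), and 0.05 to 0.89 (median 0.42) around the group means. The most similar non-member among 13840 genes was Aadac for Otc (r = 0.96), Tmem14c for Asl (0.92), Prps1l3 for Nags (0.90) and Cul4a for Cps1 (0.88). For Gls2 it was Zap70 (0.86), and for Slc25a15 Katnal1 (0.84). For the mean of the 7 scaled profiles the leading genes were Afmid (0.91), Gnmt (0.90), Pafah2 (0.90), Dbt (0.89) and Slc2a4 (0.88). These values describe points that share diets, times and library scale.

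In the SCN the 5 genes with a row were low, and no diet effect on them was called. That the tissue held SCN was checked by Avp and Vip, the neuropeptides of its neurons, at mean levels of 570 and 1011 CPM on control, whereas Alb stood at 5.76 CPM. On a common scale of the 14491 genes in both tables, Cps1 was 7964 ± 1919 CPM (SD, n = 18) in control liver and 2.10 ± 0.95 CPM in control SCN. Ass1 was 2925 ± 836 and 22.5 ± 3.2 CPM, and Asl 793 ± 322 and 11.5 ± 1.7 CPM. Slc25a15 was 492 ± 73 and 10.1 ± 1.7 CPM, and Gls2 480 ± 97 and 10.8 ± 2.1 CPM. The ranges of the tissues did not overlap for any of the 5.

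**Figure D4:**
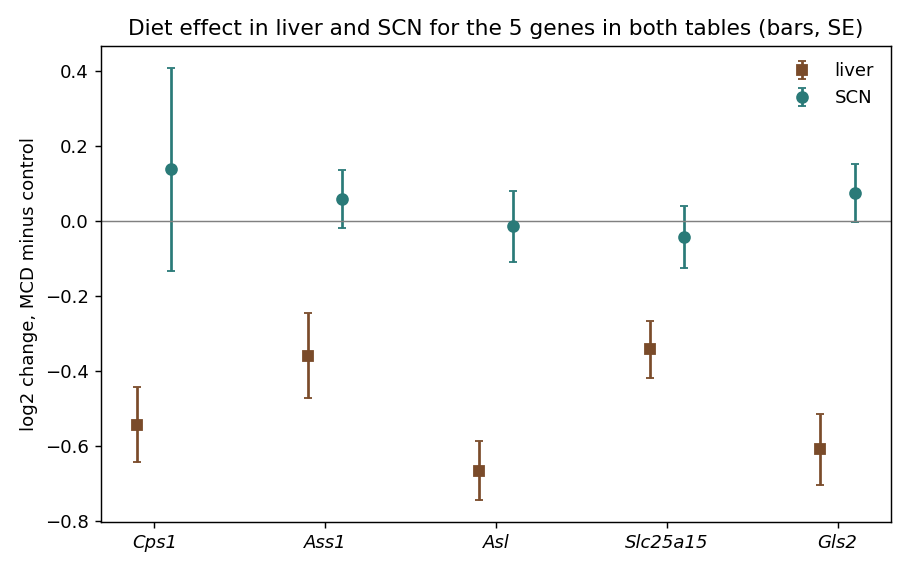
Fitted log2 change (MCD minus control) with its SE for the 5 genes with a row in both tables, squares for liver and circles for SCN, 18 libraries per diet and tissue, with a line at 0. The liver values lie below 0 for all 5 genes, and the SCN values between -0.04 and 0.14.

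The diet effect in the SCN was 0.14 ± 0.27 for Cps1, 0.06 ± 0.08 for Ass1, -0.01 ± 0.09 for Asl, -0.04 ± 0.08 for Slc25a15 and 0.07 ± 0.08 for Gls2. Over the day no member was called by edgeR, none had an unadjusted p under 0.05, and DESeq2 called 0 of 5, against 0.0635% of all genes called. At single times edgeR called none of the 30 pairs of gene and time, against 0.0106% of all pairs, and 1 had an unadjusted p under 0.05. That was Gls2 at CT4, where the MCD libraries at 17.0, 16.9 and 23.2 CPM lay above the control libraries at 11.8, 13.4 and 10.5 CPM. The difference was 0.68 ± 0.19 (edgeR unadjusted p 0.00121, adjusted p 0.511). The difference itself, liver minus SCN, was called for 5 of 5 genes, against 34.7% of 14491 genes (15.8% lower in liver). It was -0.68 ± 0.12 for Gls2, -0.66 ± 0.23 for Cps1, -0.65 ± 0.12 for Asl, -0.42 ± 0.14 for Ass1 and -0.30 ± 0.11 for Slc25a15. With library totals only Asl and Gls2 were called, and liver and SCN libraries were treated as independent because the labels do not tie them to a mouse.

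Gls2 was the only member with a 24 h component in the SCN, against 15.1% of all genes on control and 16.1% on MCD. On control it ranged over 0.54 with its peak at 10.5 h (edgeR adjusted p 0.0399), with 16.4, 14.4 and 17.0 CPM at CT8 and 8.09, 13.6 and 9.67 CPM at CT0. On MCD it ranged over 0.65 with its peak at 7.6 h (adjusted p 0.0101), with 17.0, 16.9 and 23.2 CPM at CT4 and 9.87, 11.9 and 9.39 CPM at CT0. Both calls depended on replicates. That on control was lost without the libraries of any 1 number, and that on MCD without those numbered 1 or 3 (adjusted p 0.103 and 0.118). No member's SCN rhythm differed between the diets (0.0127% of all genes called) or its level between the sexes (9.89%), with no unadjusted p under 0.05. In the SCN the synthetase Glul was called higher on MCD by 0.25 (edgeR adjusted p 0.0150), a call that was lost without the libraries numbered 2.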

How the data were processed

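Read counts per gene and per exon bin were used as deposited by the authors, without normalization per the file contents. Per the submitters' processing notes the build was GRCm39 and the tools were Trimmomatic, HISAT2, StringTie and DESeq2. Libraries came from a stranded mRNA kit, per the labels' protocols. Counts of 36 libraries per tissue were tested with edgeR 4.0.16 (R 4.3.3): TMM, the filterByExpr filter (minimum count 10), robust quasi-likelihood F tests, 12 groups of diet and time plus sex, Benjamini-Hochberg over all genes. log2 CPM used a prior count of 2. Alternatives used limma 3.58.1 voom and DESeq2 1.42.0, library totals, no filter, a replicate block and left-out libraries. Scripts were tested on simulated data.

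The genes were set by symbol, and some genes of the rule and of the lists are not reported here. From each pathway list up to 3 called genes each way were named by size, with Glul always, and for each member the most similar gene. Members and lists were chosen with earlier results of these data known. The study text gives separate mice per replicate. No pair of replicates agreed within counting noise, so none was counted as a library deposited more than once. The male control libraries of CT8 share 1 column name in each gene table and are called a and b. They carry no number in the gene fits. Both therefore stayed in when the libraries of a number were left out, and both were dropped with the replicate block. The exon-bin files of 2 control CT0 liver libraries were incomplete and were not used, nor were SCN exon bins. Coordinates are GENCODE M21 or RefSeq on GRCm38, another build than that of the counts.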

Additional observations from a re-analysis of the deposited data

Results flagged for a closer look

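The diet effect on Ass1 in liver differed between the sexes by -0.80 (log2, females minus males, by the sex-by-diet term). The diet effect differed between liver and SCN, by a test of the difference itself, for Gls2 (-0.68), Cps1 (-0.66), Asl (-0.65), Ass1 (-0.42) and Slc25a15 (-0.30). In the SCN, among the 6 female libraries on MCD, Slc25a15 was far from the others in the library labelled MCD CT12 3, at 15.6 CPM, with the nearest at 10.9 CPM. This gap is 0.709 of the whole range of the group, above the critical value of Dixon's test for 6 samples. These 6 libraries come from 6 circadian times, 1 from each, so that a stray library and a difference between times cannot be told apart. The female libraries of each gene, diet and tissue were looked at in this way, 24 sets in all, of which 1 had such a library, and chance gives about 1 in 20.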

How the results depend on the processing

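The count of liver members lower on MCD was 6 with each single library left out, 5 to 6 without the libraries of a replicate number, and 4 within the low mt-Nd6 kind. Nags changed sign to -0.13 within the high kind and ran from -0.029 to 0.11 without a replicate number. With library totals alone 3 members were called in males, Otc and Asl lower and Nags higher (0.38), and Slc25a15 was not called in females (adjusted p 0.0887). On that scale the values of Ass1 (0.17) and Slc25a15 (0.024) in males and of Nags (0.14) in females turned positive. For the sexes, 2 members differed with DESeq2, 2 with a term for the kind of library, 2 with control CT08 (a) left out, 0 without the libraries numbered 1 or 2 and 0 to 2 without single libraries. In males 3 to 4 members were called without a replicate number. A sign change within 1 SE of a value that passed in neither fit occurred 64 times. For rhythms on control DESeq2 called 3, and each of DESeq2 size factors, a term for the kind of library and leaving out control CT08 (a) called 2. Without the libraries of any replicate number 1 was called, and without single libraries 1 to 3. For the rhythm difference library totals called 1, DESeq2 2, and single libraries left out 0 to 1. At single times 0 to 9 pairs were called without a replicate number and 10 to 16 without single libraries. In liver 13 of 16 same-numbered pairs correlated above 0.1 (median r 0.24) and in SCN 8 of 16 (0.10). Not every pair did, and number 3 is also the female, so the numbers were not taken to pair samples. The replicate block stood in place of the sex term and left out control CT08 (a) and (b), so control CT8 kept only its female library. With it the liver diet calls over the day stayed as they were. Cps1 gained a rhythm call on either diet, while Otc at CT8 and the SCN Gls2 rhythm on control lost theirs. Effects of the block and of leaving out control CT08 (a) and (b) cannot be told apart. The SCN rhythm on MCD had 2 calls with limma voom and 0 to 1 without a replicate number. Liver minus SCN had 2 calls with library totals, 3 with limma voom and 3 to 4 without a replicate number. In SCN without a replicate number, the diet effect ran from -0.14 to 0.12 for Asl and from -0.12 to 0.051 for Slc25a15. The sex difference of Gls2 in liver ran from -0.086 to 0.063 without single libraries. Over all genes 9426 diet calls became 4583 and 5096 within the kinds, 986 rhythm differences 2061 with DESeq2, 359 differences between the sexes 741 with DESeq2, and 10 SCN diet calls 48 with DESeq2. The cause of these changes was not tested, other than fewer libraries where some were left out. Exon bins of few counts limit the exon result.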
